A study of Danio rerio with 8 samples.

Results

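The gelsolin family comprises proteins built from repeated gelsolin domains that bind actin filaments. Gelsolin and scinderin cut filaments and cap their fast-growing ends when calcium rises, CapG caps without cutting, villin and advillin carry an additional headpiece that lets them bundle filaments, and Flightless I joins gelsolin domains to leucine-rich repeats. In zebrafish a scinderin-like protein is so abundant in the cornea that it is counted among the corneal crystallins, the soluble proteins that accumulate in transparent tissues of the eye. The members were chosen by name (scinla, scinlb, gsna, gsnb, capgb, vil1, avil and flii), and 7 of these 8 genes had probes, 12 probes of 45220 features in all and 7 of 14462 named genes. No probe was annotated with scinla, and its level was not analysed here. Since 24159 features carried no gene symbol, a probe for it among these could not be recognised.

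RNA from the cornea of adult zebrafish of the AB2O2 wild type strain was hybridised together with RNA from the skin epidermis of adult fish of the same strain on 2-colour arrays. Cornea was dissected from eye globes, and epidermis was collected with the scales that carry it, which may bring in cells of the scale itself. Many globes and several fish were pooled for each biological repeat. There were 4 biological repeats, each on 2 arrays with the dyes exchanged, that is with cornea in Cy5 on one array and in Cy3 on the other. Repeats 1 and 2 were on slide 1 and repeats 3 and 4 on slide 2. The 2 arrays of a repeat were averaged, so that n = 4. All values are log2 ratios of cornea over epidermis, and no level of either tissue alone was available.

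The direction of the ratio and the gene names both rest on inference. The study tested genes for enrichment in cornea relative to dermis by RT-qPCR. Of 35 such genes with probes here, 32 were called higher and 1 lower when values above 0 were read as higher in cornea. The study had picked its RT-qPCR genes because its own microarray analysis called them different between the tissues. A count mostly of 1 sign was therefore likely from that selection, and the RT-qPCR serves here only to say which sign means cornea. Names hold only if the probe grid is rearranged in the way described with the methods, under which pairs of probes assigned to 1 gene resembled each other (r = 0.361 over 5098 genes with at least 2 probes). Without it they did not (r = 0.0191). Under the unchanged numbering the 7 genes would have had mean log2 ratios between −1.02 and 0.18. Pairs of repeats had correlations of 0.544 to 0.703 over all features, and array medians lay between −0.0195 and 0.00915.

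The family split between the tissues. The scinderin-like gene scinlb and the gelsolin gene gsnb stood 4 to 5 times higher in cornea, the advillin gene avil stood about 4 times lower, and the remaining genes differed by less than 2-fold. At an adjusted p under 0.05 in limma, 4 of the 7 genes (scinlb, gsnb, gsna and flii) were called higher in cornea, where 22.9% of all genes were, and 2 (vil1 and avil) were called lower, where 13.8% of all genes were. The median log2 ratio of the 7 was 0.58, beside 0.03 over all genes, but it is the value of flii, the least certain member. Of the 12 probes 4 were called higher and 2 lower, beside 14.0% and 10.4% of all features. In 5 of the 7 genes all 8 arrays had the same sign, as in 34.8% of all genes. In such tissue samples a gene can differ because more cells of a type are present or because each cell holds more of its RNA, and these cannot be told apart.

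**Figure D1:**
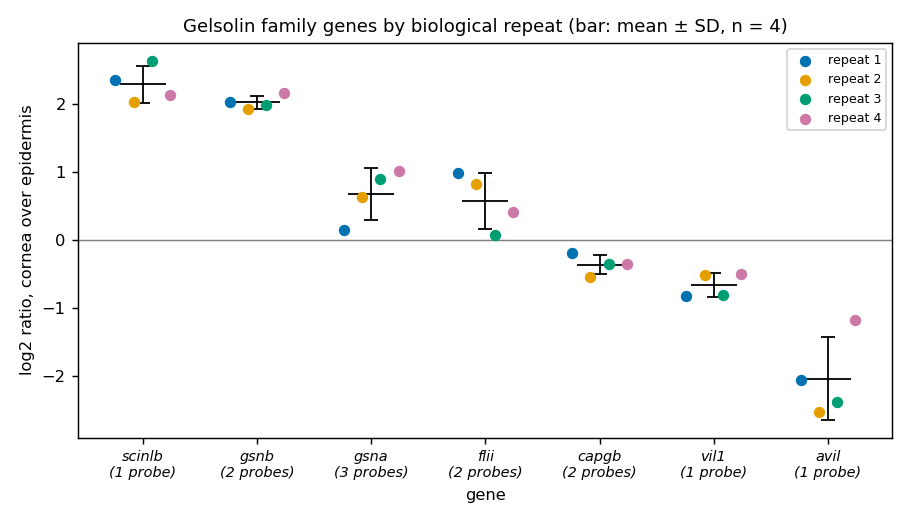
Log2 ratio of cornea over epidermis (vertical axis) for the 7 gelsolin family genes with probes (horizontal axis). Each point is 1 biological repeat, the mean of its 2 dye-swapped arrays and of the probes of the gene, and bars give the mean and SD (n = 4). scinlb and gsnb lie near 2 in every repeat, gsna and flii lie between 0.08 and 1.01, and capgb, vil1 and avil lie below 0.

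scinlb, named as a corneal crystallin gene by the study, was the member highest in cornea when the probes of a gene were averaged. The study counted scinlb among its cornea genes, a set drawn from its arrays of cornea against dermis and epidermis. Its call here is therefore not independent of that selection. With the probe of smallest variance, or with the limit on dye differences described further on, gsnb stood at 2.81 and above it. The log2 ratios of scinlb were 2.36, 2.04, 2.65 and 2.14 in repeats 1 to 4. All repeats were well above 0 and lay within a narrow band. The mean was 2.30 ± 0.27 (SD, n = 4), a 4.91-fold difference, with a 95% interval from 1.95 to 2.65 and an adjusted p of 1.45e-04 (limma). It ranked 219 from the top among the 14462 genes and so exceeded 98.5% of them. scinlb was read by 1 probe, which gave 2.49, 2.05, 2.64 and 2.03 with cornea in Cy5 and 2.23, 2.03, 2.66 and 2.24 with cornea in Cy3 in the same order of repeats. The dye made little difference, since the half-difference (cornea in Cy5 minus cornea in Cy3, divided by 2) was at most 0.128 in size and its median size of 0.0577 was exceeded by 93.1% of all probes.

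gsnb, a gene of the gelsolin type, had nearly the same ratio as scinlb and the smallest spread of the family. Its log2 ratios were 2.03, 1.94, 1.99 and 2.17, so that all repeats lay close together. The mean was 2.03 ± 0.10, a 4.09-fold difference, with an interval from 1.75 to 2.32 and an adjusted p of 1.21e-04 (limma). It ranked 319 from the top. This small spread is that of a mean over 2 probes which differed from each other (the probes of a gene are lettered from the higher mean down). Probe A stood at 2.81 ± 0.29 and probe B at 1.25 ± 0.37, and both were called higher (adjusted p = 2.08e-04 and 0.00438 in the limma fit of all probes). Probe A gave 2.38, 2.98, 2.99 and 2.91 in repeats 1 to 4 and probe B 1.69, 0.906, 0.990 and 1.43. Probe A was therefore above probe B in each repeat, with the repeat lowest on probe A being the highest on probe B. Probe B also moved with the dye, with 1.02, 0.86, 0.24 and 0.975 for cornea in Cy5 and 2.36, 0.95, 1.74 and 1.89 for cornea in Cy3. The array with cornea in Cy3 was thus the higher one in each repeat on this probe. Over the gene, arrays with cornea in Cy5 alone gave 1.78 and those with cornea in Cy3 alone 2.29.

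gsna, the other gelsolin gene, was higher in cornea by a smaller and less certain margin. Its log2 ratios were 0.15, 0.64, 0.90 and 1.01, with repeat 1 close to 0. The mean was 0.68 ± 0.38, a 1.60-fold difference (adjusted p = 0.0237, limma). The call was lost without repeat 2, 3 or 4 (adjusted p = 0.0625, 0.0923 and 0.0954). Its 3 probes did not share a level. Probe A gave 1.71, 1.15, 1.48 and 1.91 and was called higher (mean 1.56 ± 0.33, adjusted p = 0.00158), whereas probe B (0.36 ± 0.30, adjusted p = 0.194) and probe C (0.10 ± 0.87, adjusted p = 0.853) were not. On probe C the arrays of repeat 1 gave 0.29 with cornea in Cy5 and −2.66 with cornea in Cy3, and those of repeat 3 gave 1.74 and −0.56. These 2 repeats thus reversed sign with the dye on this probe. Probe A was above 0 on all 8 arrays.

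Averaged over its probes, gsnb exceeded its paralogue gsna by 1.36 ± 0.36 on the log2 scale, with differences between 1.09 and 1.88 in the 4 repeats. An exact two-sided sign-flip permutation test over 4 repeats cannot give a p under 0.125, the value obtained here (adjusted p = 0.250 over the 6 pairs of neighbours in the order of ratios that were compared). By probe the order was not fixed, since gsna probe A (1.56) stood above gsnb probe B (1.25). scinlb exceeded gsnb in 3 of 4 repeats by a mean of 0.26 ± 0.30, which is within its spread (exact permutation p = 0.250). gsna and flii (difference 0.10 ± 0.76) and capgb and vil1 (0.30 ± 0.30) also lay within the spread of their differences. flii exceeded capgb (0.94 ± 0.42) and vil1 exceeded avil (1.38 ± 0.56) in each of the 4 repeats (exact permutation p = 0.125, adjusted p = 0.250 for each). For flii this held for the mean of its probes only, since its probe B stood at −0.79 in repeat 1, below capgb at −0.20.

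flii, whose product is a gelsolin-domain protein with leucine-rich repeats, was the least certain member. Its log2 ratios were 0.99, 0.83, 0.08 and 0.42, with repeat 3 next to 0. The mean was 0.58 ± 0.41 with an adjusted p of 0.0471 (limma), and the call was lost without repeat 1, 2 or 4 (adjusted p = 0.133, 0.139 and 0.0981). Neither of its probes was called on its own. Probe A gave 2.78, 1.22, 0.0158 and 1.08 (mean 1.27 ± 1.14, adjusted p = 0.0691) and probe B −0.79, 0.44, 0.14 and −0.24 (mean −0.11 ± 0.53, adjusted p = 0.765). The ratios also moved with the dye. Probe A gave 1.18, 0.53, −0.38 and 0.34 with cornea in Cy5 and 4.38, 1.90, 0.42 and 1.81 with cornea in Cy3, so that the array with cornea in Cy3 was the higher one in all 4 repeats. Over the gene, arrays with cornea in Cy5 alone gave 0.17 (adjusted p = 0.614) and those with cornea in Cy3 alone 0.99 (adjusted p = 0.0250).

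**Figure D2:**
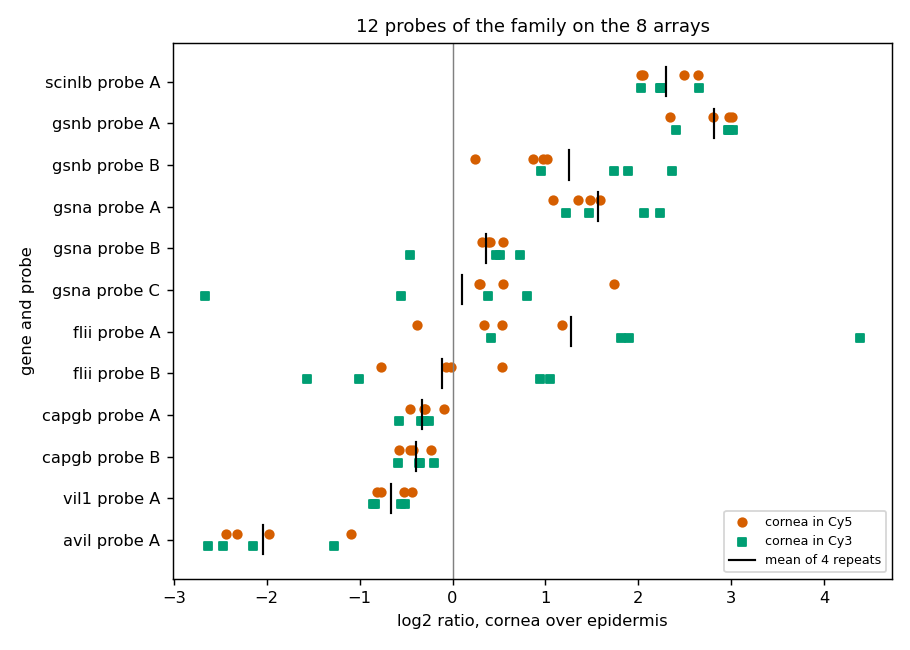
Log2 ratio of cornea over epidermis (horizontal axis) on each of the 8 arrays for the 12 probes of the family (vertical axis). Circles are arrays with cornea in Cy5, squares arrays with cornea in Cy3 and black lines the mean of the 4 repeats. For scinlb, gsnb probe A, capgb, vil1 and avil both dye orientations overlie each other. flii probe B and gsna probe C scatter on both sides of 0, and flii probe A lies above 0 on 7 of the 8 arrays.

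The villin branch lay on the epidermis side. avil, the advillin gene, known in mammals from sensory neurons, had log2 ratios of −2.06, −2.54, −2.40 and −1.18. All repeats were below −1, and repeat 4 was the weakest. The mean was −2.04 ± 0.61, a 4.12-fold lower signal in cornea (interval −2.61 to −1.47, adjusted p = 0.00105, limma), and 0.643% of genes lay below it. Its 1 probe was below 0 on all 8 arrays, and swapping the dyes moved it by no more than 0.0987 in half-difference.

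vil1, the villin gene, whose product is best known from the microvilli of gut epithelium, was lower in cornea by a small and even amount. Its log2 ratios were −0.83, −0.52, −0.82 and −0.49. No repeat reached 0, and repeats of both slides stood at each of these 2 levels. The mean was −0.66 ± 0.18, a 1.58-fold lower signal in cornea (interval −0.97 to −0.35, adjusted p = 0.00820, limma). The 2 dye orientations were almost identical on its 1 probe, with −0.82, −0.52, −0.78 and −0.44 for cornea in Cy5 and −0.84, −0.51, −0.86 and −0.55 for cornea in Cy3. The largest half-difference was 0.0574. Within a single slide the call was lost (adjusted p = 0.150 within slide 1 and 0.0699 within slide 2) at ratios of −0.67 and −0.66.

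capgb, which encodes a capping protein without cutting activity, was just below 0 on every array but not called. Its log2 ratios were −0.20, −0.55, −0.35 and −0.36, a mean of −0.36 ± 0.14 (interval −0.66 to −0.07, adjusted p = 0.0607, limma). With all 8 arrays fitted and the repeat as a block, the same ratio had an adjusted p of 0.0107. Its 2 probes lay closer together than those of the other 3 genes with several probes, at −0.33 ± 0.14 and −0.40 ± 0.15. Both were lowest in repeat 2 (−0.52 and −0.58) and nearest to 0 in repeat 1 (−0.18 and −0.22). The duplicate gene capga, outside the chosen members, had a log2 ratio of −0.09 ± 0.33 (adjusted p = 0.704).

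The probes differed in how closely the dye orientations agreed. The absolute half-difference of a probe, taken as the median over its repeats, had a median of 0.266 over all probes. It was between 0.0254 and 0.0895 for the probes of scinlb, vil1, avil and capgb and for gsnb probe A, and 0.0766 and 0.198 for gsna probes B and A. It was 0.563 for gsnb probe B, 0.637 for gsna probe C and 0.710 and 0.774 for the probes of flii. When probes with a median above 0.5 were left out, an alternative chosen after seeing the data, 8 of the 12 probes remained. gsnb then stood at 2.81 (adjusted p = 5.46e-05), gsna at 0.96 (adjusted p = 0.00128) and capgb at −0.36 (adjusted p = 0.0493), and flii had no probe left.

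Likeness to scinlb over the 8 arrays was ranked by root mean square difference of log2 ratios. Members, clone-style names and all names starting with cb were left out. The 5 genes most like scinlb were then apoeb (0.163), chac1 (0.204), riok3 (0.208), hmgb2a (0.229) and oaz1a (0.247). The apolipoprotein gene apoeb had a mean of 2.25 ± 0.16 over 3 probes, the glutathione-degrading enzyme gene chac1 2.25 ± 0.25, the kinase gene riok3 2.34 ± 0.31, the chromatin protein gene hmgb2a 2.31 ± 0.17 and the antizyme gene oaz1a 2.18 ± 0.07. This likeness is mostly one of size and is given as a description over 8 arrays of 4 repeats. apoeb was also among the RT-qPCR genes from which the direction of the ratio was inferred, so its sign restates that choice.

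Of 9 measured relatives with gelsolin or headpiece domains, 1 was called higher and 1 lower, where 22.9% and 13.8% of all genes were. This list was not tested against the rest of the genes. The higher one was scin, the scinderin gene itself, at 0.65 ± 0.41 (adjusted p = 0.0316), and the lower one was the villin-like gene vill at −1.17 ± 0.67 (adjusted p = 0.0132). The supervillin genes svila and svilc stood at −0.13 ± 0.38 and 0.17 ± 0.19 and were not called.

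The wider set of actin regulators is described by counts, to be read beside the 22.9% of all genes called higher, the 13.8% called lower and the median log2 ratio of 0.03 over all genes. None of these lists was tested either. Of 7 actin genes 5 were higher and 0 lower (median log2 ratio 0.68), led by the smooth muscle actin gene acta2 at 4.72 ± 0.38 (adjusted p = 4.14e-05). Of 13 genes of the Arp2/3 complex, which starts branched filaments, 6 were higher and 1 lower (median 0.43), with actr3 at 2.53 ± 0.32 (adjusted p = 1.40e-04) and arpc1a at −1.12 ± 0.19 (adjusted p = 0.00104). Of 20 bundling and microvillus genes 9 were higher and 1 lower (median 0.43). The called genes farthest up and down were ezrin paralogues, genes for a linker of the membrane to actin. ezrb stood at 1.91 ± 0.15 (adjusted p = 1.59e-04, 1 probe) and ezra at −0.72 ± 0.07 (adjusted p = 0.00372, 3 probes from −1.48 to −0.18).

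Bundling, an activity of villin and advillin, was counted above (9 of 20 genes higher and 1 lower, median 0.43). Lists for other activities of the family, severing, capping and monomer binding, also held called genes in both directions. The counts for severing and capping lay near the shares over all genes. Of 18 severing and turnover genes, 5 were higher and 3 lower (median 0.04). Here too the called genes farthest apart were paralogues, the cofilin genes cfl1 at 1.65 ± 0.17 (adjusted p = 2.50e-04) and cfl2 at −2.78 ± 0.33 (adjusted p = 1.20e-04), and the probes of cfl1 stood at 0.42 and 2.88. Of 14 end capping genes 3 were higher and 2 lower (median −0.04), with the capping protein subunit gene capza1a at 1.69 ± 0.14 (adjusted p = 2.20e-04, probes at 0.03 and 3.35) and the tropomodulin gene tmod4 at −1.28 ± 0.43 (adjusted p = 0.00254). Of 4 monomer-binding genes 2 were higher and 1 lower (median 0.19), with the profilin gene pfn2b at 2.03 ± 0.13 (adjusted p = 1.23e-04, probes from 0.49 to 3.89) and the thymosin gene tmsb4x at −0.62 ± 0.17 (adjusted p = 0.0103).

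**Figure D3:**
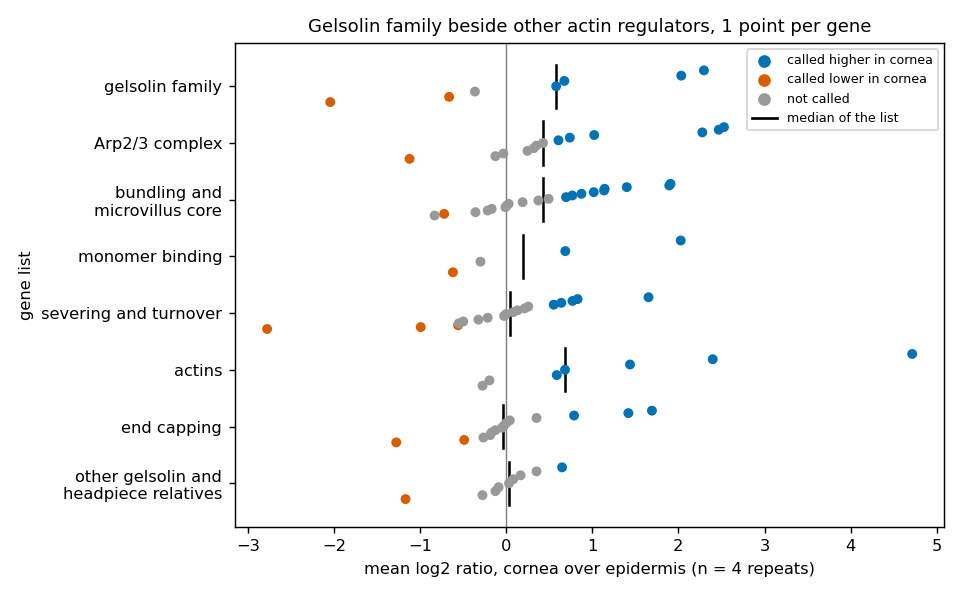
Mean log2 ratio of cornea over epidermis (horizontal axis, n = 4 repeats) for the 7 gelsolin family genes and 7 lists of other actin regulators (vertical axis), 1 point per gene. Blue points are genes called higher in cornea, orange points genes called lower and grey points genes not called, and black lines are list medians. The family spans from −2.04 for avil to 2.30 for scinlb.

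Markers of cornea and of other cells were counted in the same way, again beside 22.9% of all genes called higher and 13.8% lower. Of 12 cornea markers 11 were called higher, and 1, the proteoglycan gene lum, lower at −1.55 ± 0.19. Of these, tnn, pax6a, pax6b and krt97 were also among the RT-qPCR genes from which the direction of the ratio was inferred. Their calls restate that choice, and so does that of gnat2 among the photoreceptor markers. The study also placed foxc1a, dcn, kera and tgfbi in its cornea gene set, drawn from its arrays of cornea against dermis and epidermis. The calls of these genes are therefore not independent of these data either. Among smooth muscle markers, 4 of 9 were called higher and 0 lower (list mean between 1.09 and 1.29 in the 4 repeats). The median of this list was only 0.32, and its highest gene, acta2, stood at 4.72. Among skeletal muscle markers, 6 of 13 were called higher and 1 lower (list mean between 0.44 and 0.65). The median of that list was −0.19, so its mean and its median had opposite signs. Photoreceptor markers were higher in 4 and lower in 0 of 12 (median 0.43, list mean 0.49 to 0.96). Lens markers were higher in 1 and lower in 2 of 13 (median −0.15, list mean −0.16 to −0.04). Leukocyte markers were higher in 4 and lower in 4 of 15 (median −0.04, list mean −0.14 to 0.46). Scale-forming cell markers lay on the epidermis side, with 1 higher and 8 lower of 16 (median −0.89, list mean −1.18 to −0.81). Ionocyte and mucous cell markers were higher in 3 and lower in 2 of 9 (median 0.08, list mean −0.23 to 0.06). They stood far apart, with the called genes reaching from agr2 at −3.12 ± 0.61 to ca2 at 2.29 ± 0.44. The study also counted ca2 among its cornea genes, so its call is not independent of these data. acta1a, acta1b, acta2, lcp1 and coro1a stood both in a marker list and in a list of actins or actin-binding proteins. The part of these cells in the ratios of the gelsolin family was not tested.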

How the data were processed

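The authors deposited a log2 ratio for each feature on each array. GenePix images had been background-corrected (minimum method), normalised within arrays and then between arrays (Aquantile) in limma. Base 2 was assumed, as limma uses it. Intensities and spot flags were not used here, so probes above background cannot be named, and the number of arrays limits the precision.

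Feature rows were paired with the platform annotation by rearranging them as a 532 by 85 grid, rotated and interleaved in steps of 2. This gave 21061 probes with 1 gene symbol, 0 with several and 24159 features with none. Probes of a gene were averaged.

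The labels mark both arrays of a repeat as dye swaps of 1 replicate. They were taken to share RNA extracts and were averaged. Repeat means were fitted by lmFit and eBayes of limma 3.58.1 (R 4.3.3) and tested two-sided against 0, with Benjamini-Hochberg adjustment over all 14462 genes or all 45220 features, and called at an adjusted p under 0.05. Control spots could not be told apart and stayed in the probe fit. SDs are between the 4 repeats, and p-values measure the spread between these pools. Deviations of the 2 arrays of a repeat from the mean of their orientation correlated between 0.0213 and 0.0899. Between arrays of opposite orientation from different repeats the correlations were −0.0924 to 0.0370. The ranges overlapped, and over all features the pairing was only weakly visible. In the fit of gene means with the repeat as a block and a dye term, the consensus correlation within repeats was 0.336. Alternatives were the repeat as a block with a dye term, each repeat left out, 1 dye orientation, 1 slide, slide as a covariate, 2 scalings, 2 ways to combine probes, a test against a 2-fold difference, a robust variance prior and, added later, a limit on the dye half-difference.

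Named were all members, the highest and lowest called gene of each actin list, the 5 genes most like scinlb, and, chosen after their values were seen or for their relation to a member, capga, svila, svilc, lum, agr2 and ca2. Members and lists were chosen with earlier results of these data known. Tables were handled in Python 3.11.15 with numpy 2.4.6 and pandas 2.3.3, and figures were drawn with matplotlib 3.10.9.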

Additional observations from a re-analysis of the deposited data

Results flagged for a closer look

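Of 19 sets of 4 repeats checked for a single repeat far from the others (7 genes and 12 probes), 1 stood out by Dixon's criterion, which chance flags in about 1 of 20. On gsnb probe A repeat 1 had a log2 ratio of 2.38, while the other repeats lay between 2.91 and 2.99.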

How the results depend on the processing

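The log2 ratios of scinlb (between 2.18 and 2.39), gsnb (between 1.78 and 2.81) and avil (between −2.33 and −1.79) kept their direction and their call under all 17 alternatives. gsna was no longer called with cornea in Cy3 only (0.52), within slide 1 (0.39), with the median over probes (0.42), with the probe of smallest variance (0.36) or against a 2-fold difference (0.68), and lay between 0.56 and 0.85 with 1 repeat left out. flii was no longer called with cornea in Cy5 only (0.17), within slide 1 (0.91) or slide 2 (0.25), with quantile normalisation (0.52) or against a 2-fold difference (0.58), lay between 0.44 and 0.75 with 1 repeat left out, and turned to −0.11 with the probe of smallest variance. vil1 was no longer called within slide 1 (−0.67), slide 2 (−0.66) or against a 2-fold difference (−0.66). capgb became called when repeats entered as a replicate block beside a dye term (−0.36) and with the limit on the dye half-difference (−0.36). The block changed no other call of a member. Members called higher numbered 2, in place of 4, within slide 1, with the probe of smallest variance and against a 2-fold difference, and 2 to 3 with 1 repeat left out. Members called lower numbered 1, in place of 2, within either slide and against a 2-fold difference. Over all genes, 3315 were called higher and 1994 lower with all repeats, 1400 and 639 within slide 1, and 2190 and 1224 within slide 2. Against a 2-fold difference 543 and 166 were called, and with the probe of smallest variance 3401 and 2448. With 1 repeat left out, 2466 to 2975 were called higher and 1329 to 1879 lower, the fewest lower without repeat 3. A test against a 2-fold difference and fewer repeats call fewer genes by construction, and the cause of the other changes was not tested.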
